A study of Mus musculus with 8 samples.

Results

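The T cell receptor complex and the proteins that act next to it were followed at the RNA level through 9 genes: Cd3e, Cd3d, Cd3g and Cd247, which encode the signalling chains of the receptor, Cd4, Cd8a and Cd8b1, which encode the coreceptors, and Lck and Zap70, which encode the first kinases of the pathway. Members were chosen by gene symbol, and each had 1 row among the 37980 rows of the deposited table, which hold 34586 gene symbols. The libraries came from cecal tumors of C57BL/6 mice that model GIST, a stromal sarcoma of the gut wall whose cells resemble its pacemaker cells. There were 4 libraries of tumors from mice given tamoxifen and 4 of tumors from mice given vehicle. Animals of both groups carried the same alleles: Kit V558Delta/+, Etv1 flox/flox and, at Rosa26, CreERT2/CreERT2. Tamoxifen activates CreERT2, which then cuts out the floxed part of Etv1, and Rosa26 is active in most cell types, so the Cre itself is not restricted to tumor cells. Recombination was not measured in any cell type here. The sources used here give no tamoxifen dose, no interval between treatment and explant and no age.

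A T cell recognises peptide held by an MHC molecule through a clonotypic receptor that has no signalling tail of its own. The receptor therefore sits in a complex with the CD3 gamma, delta and epsilon chains and a dimer of the zeta chain, whose tails carry tyrosine motifs called ITAMs. The coreceptors CD4 (on helper and regulatory T cells) and CD8 (on cytotoxic T cells) bind MHC class II and class I and bring the kinase LCK to the complex. LCK phosphorylates the ITAMs, ZAP-70 binds them, and ZAP-70 then phosphorylates the adaptors that carry the signal inward. In tumors these genes are read as marks of infiltrating T cells.

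Values are FPKM, the fragments of a gene scaled by transcript length and library size, so absolute read depth is unknown and levels can be set side by side between genes. From 14180 to 14844 gene symbols reached 1 FPKM per library. Etv1 measured 17.4 to 34.9 FPKM in tamoxifen tumors and 34.6 to 51.1 FPKM in vehicle tumors. It did not pass the test (limma adjusted p = 0.13, n = 4 each), and the groups overlapped at tamoxifen replicate 1. Kit and Ano1, defining genes of the tumor lineage, were abundant in every library, at 386 to 567 and 372 to 538 FPKM in tamoxifen tumors and 542 to 892 and 414 to 603 FPKM in vehicle tumors. The labels do not tie replicates to separate animals, and the p-values cover only the spread among these libraries, which may be technical. In bulk tumor RNA, fewer T cells and less RNA per T cell cannot be told apart.

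Tamoxifen tumors held less RNA of 5 of the 9 members, Cd3e, Cd3d, Cd8a, Cd8b1 and Lck, which lay at 37.3% to 53.3% of their vehicle means. Cd3g and Cd4 had lower means without passing the test. Zap70 and Cd247, the zeta chain gene, overlapped between groups, and Cd247 stood at 94.5% of its vehicle mean. All 9 members passed the filter on low values (a mean of at least 1 FPKM), and 5 passed the test as lower in tamoxifen (limma on log2(FPKM + 1), Benjamini-Hochberg adjusted p under 0.05, n = 4 each). Among all 15023 tested genes, 5.45% were called, 3.07% lower and 2.38% higher. In 6 members every tamoxifen value lay below every vehicle value, which occurred in 7.74% of tested genes, while 7.37% lay wholly higher and 15.1% in either direction. The median log2 fold change was -0.89 over the members and 0.01 over all tested genes. Under scaling to the same total FPKM only Cd3e passed (adjusted p = 0.0438), and without vehicle replicate 2 or 4 only Cd3e and Lck did.

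**Figure D1:**
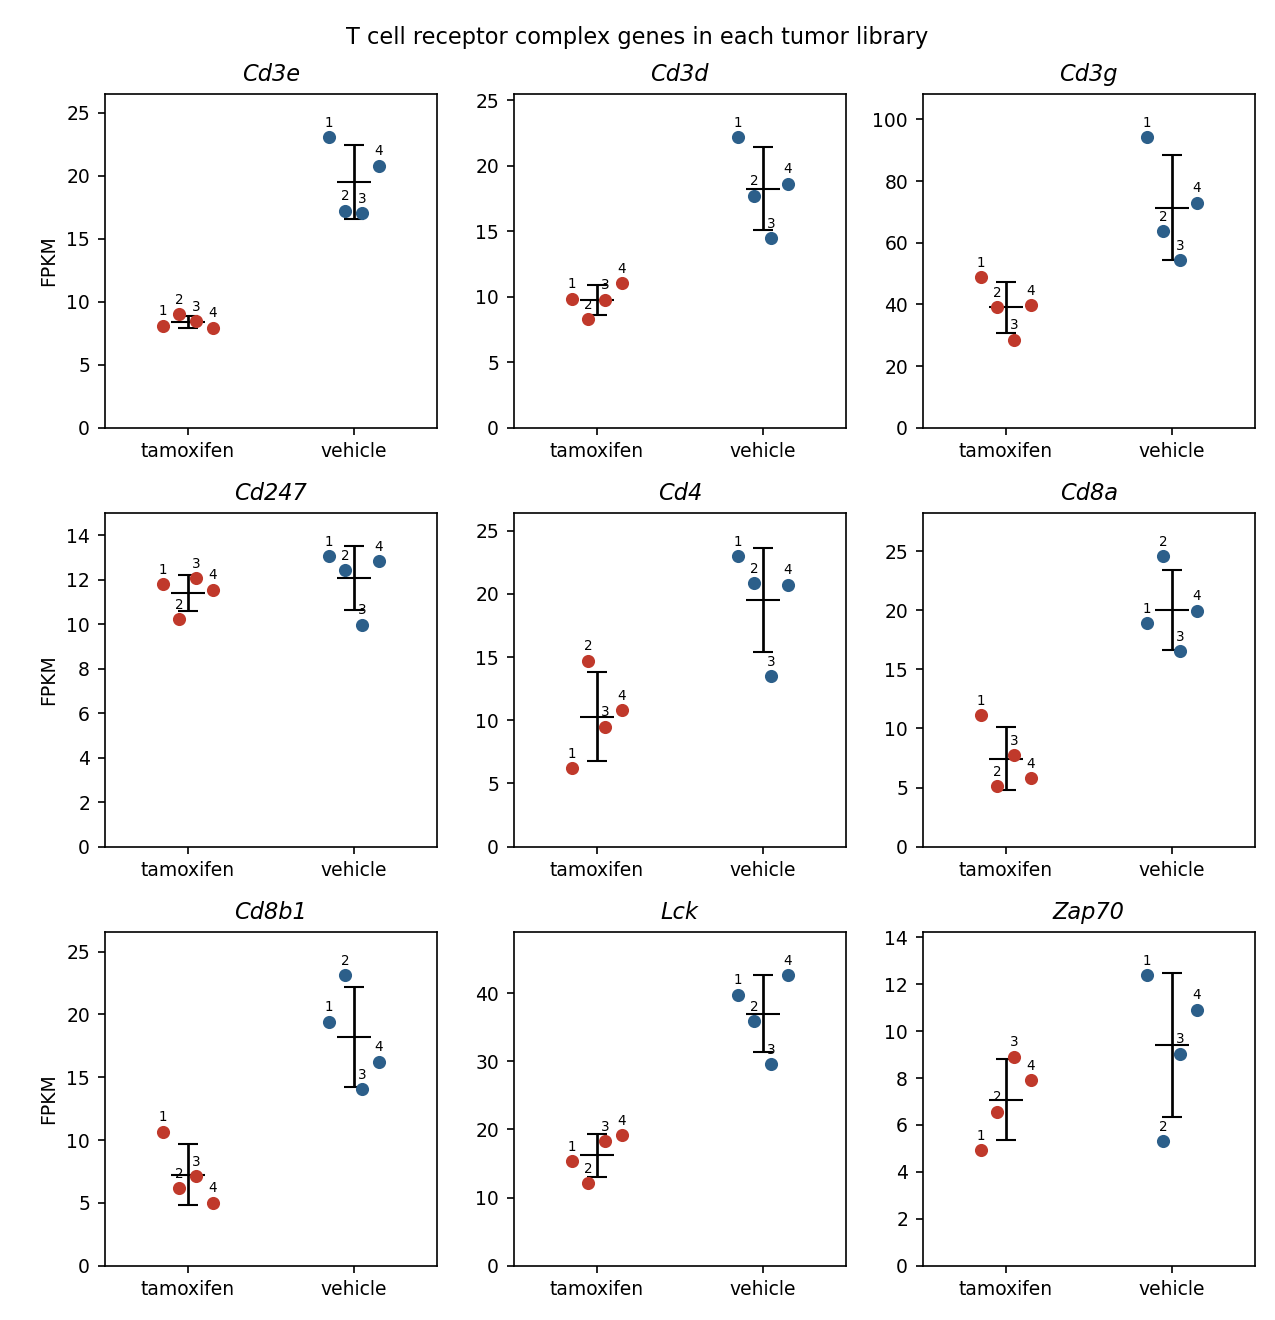
FPKM of the 9 members (vertical axes, from 0) in each tamoxifen and vehicle library; points are libraries with their replicate numbers, and black marks are the mean ± SD of 4. Tamoxifen points lie below all vehicle points for Cd3e, Cd3d, Cd3g, Cd8a, Cd8b1 and Lck, while Cd4, Cd247 and Zap70 overlap.

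Cd3e, Cd3d and Cd3g form a cluster on chromosome 9 in the mm9 build of the deposited loci. Cd3g (ENSMUSG00000002033, 44777655 to 44788514) lies 1361 bases from Cd3d (ENSMUSG00000032094, 44789876 to 44795135), and Cd3e (ENSMUSG00000032093, 44806826 to 44817673) follows after another 11690 bases. No other gene at a mean of 1 FPKM or more overlaps these 3 loci.

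Cd3e encodes CD3 epsilon, which pairs with either gamma or delta and is needed for any CD3 on the surface. It measured 8.10, 9.02, 8.45 and 7.95 FPKM in tamoxifen replicates 1 to 4, against 23.1, 17.2, 17.0 and 20.8 FPKM in vehicle replicates 1 to 4. The tamoxifen libraries were close to each other, and the highest of them lay well below the lowest vehicle library. Cd3e averaged 8.38 ± 0.475 FPKM in tamoxifen tumors and 19.5 ± 2.94 FPKM in vehicle tumors (SD, n = 4 each), a log2 fold change of -1.12 (SE 0.12, limma adjusted p = 0.00653). By p-value it ranked 25 of the 15023 tested genes, ahead of the other members. Its call held without any single library (adjusted p of at most 0.0292) and in all 12 other settings.

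Cd3d encodes CD3 delta. It measured 9.86, 8.26, 9.76 and 11.0 FPKM in tamoxifen replicates 1 to 4, against 22.2, 17.7, 14.5 and 18.6 FPKM in vehicle replicates 1 to 4. The groups did not overlap, although vehicle replicate 3 came nearest to the tamoxifen libraries. Its log2 fold change was -0.83 (SE 0.15, limma adjusted p = 0.0191). The call was lost without tamoxifen replicate 2 (adjusted p = 0.0556), vehicle replicate 2 (0.0595) or vehicle replicate 4 (0.066).

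Cd3g encodes CD3 gamma and was the most abundant member per transcript length in both groups. It measured 48.9, 39.1, 28.6 and 39.8 FPKM in tamoxifen replicates 1 to 4, against 94.3, 63.8, 54.4 and 72.9 FPKM in vehicle replicates 1 to 4. The groups did not overlap, but each spread widely, with tamoxifen replicate 3 and vehicle replicate 3 lowest and replicate 1 highest in both. With a log2 fold change of -0.85 (SE 0.21) it did not pass (limma adjusted p = 0.0547). Leaving out any single library gave an adjusted p of 0.059 to 0.133. It passed in 3 of the 12 other settings, among them robust variance estimation (adjusted p = 0.0468) and scaling to the total FPKM without receptor segments (0.0316).

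Cd247 encodes the zeta chain, which joins the complex last and is also used by receptors of NK cells. It measured 11.8, 10.2, 12.1 and 11.6 FPKM in tamoxifen replicates 1 to 4, against 13.1, 12.4, 9.97 and 12.8 FPKM in vehicle replicates 1 to 4. The lowest library was a vehicle one, and the tamoxifen values fell inside the vehicle range. The log2 fold change was -0.07 (SE 0.12, 95% interval -0.34 to 0.20, limma adjusted p = 0.76), an interval that does not reach the Cd3e change of -1.12. The Cd247 interval also does not reach the log2 fold change of -0.83 for Cd3d.

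The Cd247 estimate itself is less precise than the others. The confidence bounds in the authors' deposited table, whose level is not given in the sources used here, spanned 17.0- to 30.0-fold from lower to upper for Cd247 in tamoxifen libraries and 7.46- to 11.7-fold in vehicle libraries. Over the other 8 members they spanned 2.91- to 8.10-fold. For no member did the highest upper bound in tamoxifen libraries lie below the lowest lower bound in vehicle libraries. For Cd3e these were 14.5 and 7.63 FPKM. The locus listed for Cd247 (ENSMUSG00000005763, chromosome 1, 167711206 to 167932809) also contains Pou2f1, which encodes the widely expressed factor OCT-1. Pou2f1 measured 3.40 ± 0.481 FPKM in tamoxifen tumors and 2.58 ± 0.523 FPKM in vehicle tumors (SD, n = 4 each; limma adjusted p = 0.281). Whether reads of the overlapping gene enter the Cd247 value was not tested.

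The difference between Cd247 and Cd3e was examined directly as a log2 ratio within each library, which does not depend on how libraries are scaled apart from the added 1 FPKM. The log2 ratio of Cd247 to Cd3e was 0.49, 0.16, 0.47 and 0.49 in tamoxifen replicates 1 to 4, against -0.78, -0.44, -0.72 and -0.66 in vehicle replicates 1 to 4. Every tamoxifen library had more Cd247 than Cd3e, and every vehicle library less. The mean difference was 1.05 (exact 2-sided permutation p = 0.0286). No smaller p is possible with 70 arrangements, and after adjustment over the 10 ratios computed it was 0.143. At this smallest p a ratio can pass the adjustment only if most of the 10 ratios reach it. That it did not pass therefore says nothing about the size of this difference.

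For the other CD3 chains the groups overlapped. The log2 ratio of Cd3d to Cd3e averaged 0.19 ± 0.23 in tamoxifen and -0.10 ± 0.11 in vehicle tumors (SD, n = 4 each; exact permutation p = 0.0857, adjusted 0.286). That of Cd3g to Cd3e averaged 2.07 ± 0.34 in tamoxifen and 1.80 ± 0.15 in vehicle tumors (exact permutation p = 0.171, adjusted 0.429). When group means are removed, Cd3d and Cd247 varied together over the 8 libraries with a Pearson r of 0.86, and Cd3e and Cd3d with 0.52, values given as a description of points that share libraries.

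**Figure D2:**
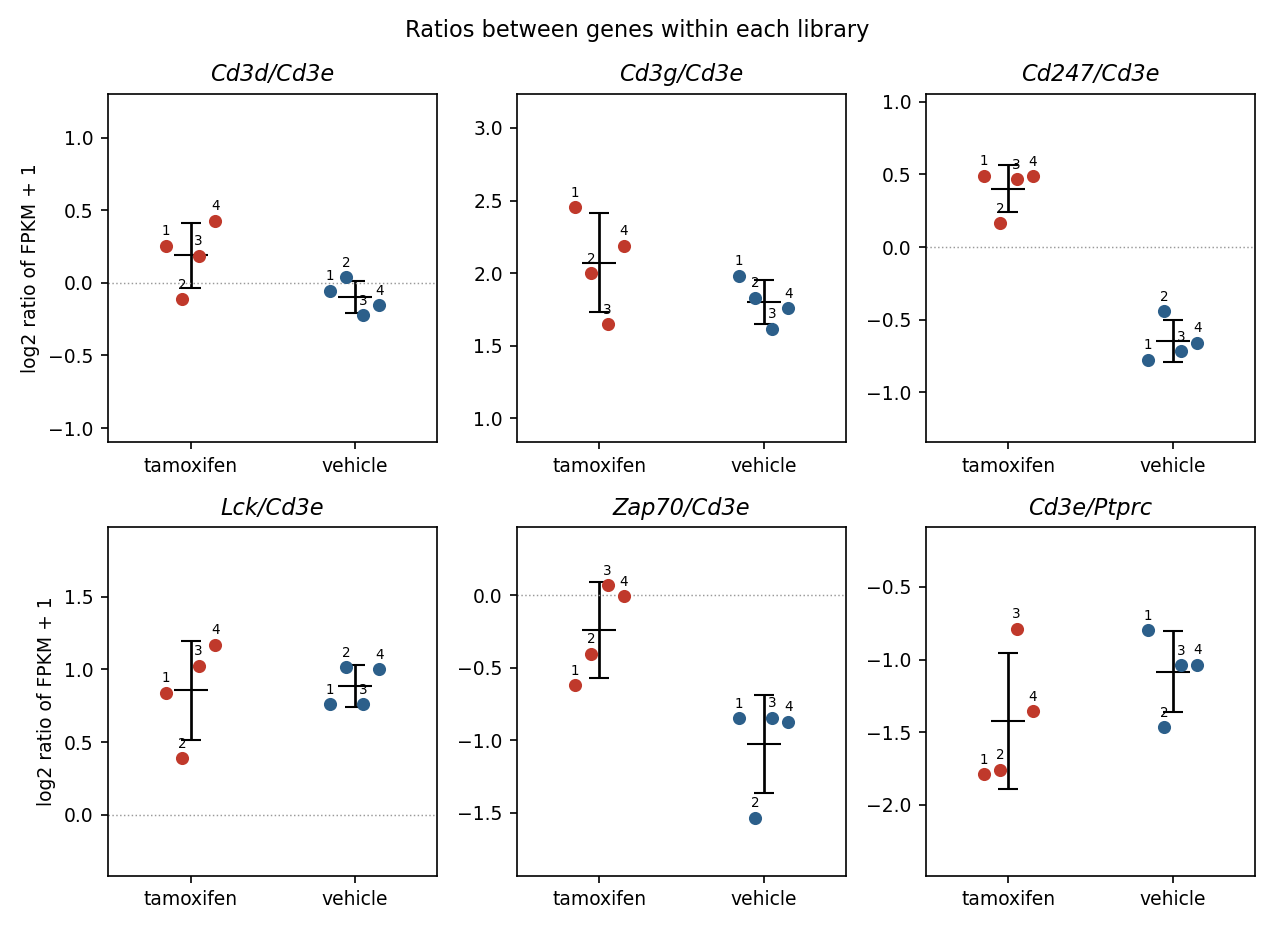
Log2 ratios of FPKM + 1 between genes within each library (vertical axes, all spanning the same width), with replicate numbers and the mean ± SD of 4 per group. Only the Cd247/Cd3e and Zap70/Cd3e panels show tamoxifen points wholly above vehicle points; the other 4 panels overlap.

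The sequences just before the start sites are shown for the 3 CD3 genes, whose means were all lower in tamoxifen tumors, and for Cd247, whose levels overlapped. They are the 250 bases before the start in RefSeq on GRCm38.p6, a later build than that of the deposited loci, printed 5′ to 3′ on the strand of the gene. Capitals mark matches to AGGAAG or its complement CTTCCT, a form of the core that ETS factors bind; Etv1 belongs to this family, as do factors of T cells themselves.
Cd3e (chr9:45009612-45009861, minus strand): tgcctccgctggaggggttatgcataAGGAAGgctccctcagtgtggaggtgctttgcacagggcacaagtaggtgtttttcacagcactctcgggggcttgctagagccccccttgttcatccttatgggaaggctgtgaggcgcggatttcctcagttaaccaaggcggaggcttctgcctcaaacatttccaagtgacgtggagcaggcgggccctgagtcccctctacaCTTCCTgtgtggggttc
Cd3d (chr9:44981536-44981785, plus strand): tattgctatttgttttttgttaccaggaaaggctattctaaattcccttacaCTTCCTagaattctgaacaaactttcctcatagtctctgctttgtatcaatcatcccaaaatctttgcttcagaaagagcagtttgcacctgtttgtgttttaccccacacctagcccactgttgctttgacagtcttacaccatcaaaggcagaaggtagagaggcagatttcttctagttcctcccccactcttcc
Cd3g (chr9:44980432-44980681, minus strand): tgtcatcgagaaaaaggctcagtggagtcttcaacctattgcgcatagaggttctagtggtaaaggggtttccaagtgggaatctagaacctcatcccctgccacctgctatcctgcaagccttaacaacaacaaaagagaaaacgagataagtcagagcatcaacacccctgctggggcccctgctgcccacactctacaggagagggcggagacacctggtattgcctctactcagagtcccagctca
Cd247 (chr1:165788431-165788680, plus strand): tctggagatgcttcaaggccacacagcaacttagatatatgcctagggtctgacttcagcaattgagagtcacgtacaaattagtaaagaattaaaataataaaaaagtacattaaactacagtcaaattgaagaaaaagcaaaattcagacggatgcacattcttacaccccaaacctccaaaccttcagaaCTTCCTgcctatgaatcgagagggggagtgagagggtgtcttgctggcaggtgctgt
The Cd3e sequence held 2 matches, 224 and 17 bases before the start. Cd3d and Cd247 held 1 each, at 198 and 57 bases, and Cd3g held none. CGGAAG, the other ETS form searched on both strands, was in none of the 4.

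RefSeq start sites were matched for 7 of the 9 members, giving 10 sequences in all, since Lck had 2 and Zap70 had 3. Of these 10, 7 held AGGAAG or CGGAAG on either strand, against 39.2% of 32817 such windows across the genome. E-box letters (CAGGTG or CAGCTG, bound by E proteins) were in 6 of the 10, against 27.7% of all windows. The RUNX letters TGTGGT were in 2 of the 10 and 14.04% of all windows, in 1 of the Lck and 1 of the Zap70 sequences. TATAAA was in none of the 10 and in 12.4% of all windows. The 2 Lck windows held 3 and 1 matches to AGGAAG. The 10 windows are not independent, since those of 1 gene share it, and a match to letters is not a binding site.

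Of the coreceptor genes, Cd8a and Cd8b1 passed the test as lower in tamoxifen tumors, and Cd4 had a lower mean without passing. Cd8a (ENSMUSG00000053977, chromosome 6, 71323421 to 71329165 in mm9) and Cd8b1 (ENSMUSG00000053044, 71272830 to 71287471) lie 35949 bases apart and encode the alpha and beta chains of CD8. The alpha-beta dimer marks conventional cytotoxic T cells, while CD8 alpha alone also occurs on intraepithelial lymphocytes and on a subset of dendritic cells in mice.

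Cd8a measured 11.1, 5.12, 7.73 and 5.82 FPKM in tamoxifen replicates 1 to 4, against 18.9, 24.6, 16.5 and 20.0 FPKM in vehicle replicates 1 to 4. Tamoxifen replicate 1 was the highest of its group and still below every vehicle library. The log2 fold change was -1.35 (SE 0.22, limma adjusted p = 0.0161), the largest among the members. The call was lost without vehicle replicate 2 (adjusted p = 0.0544) or vehicle replicate 4 (0.0582).

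Cd8b1 measured 10.7, 6.16, 7.14 and 5.01 FPKM in tamoxifen replicates 1 to 4, against 19.4, 23.1, 14.05 and 16.3 FPKM in vehicle replicates 1 to 4. As with Cd8a, tamoxifen replicate 1 was the highest of its group and the groups did not overlap. The log2 fold change was -1.24 (SE 0.23, limma adjusted p = 0.0219). The call was lost without tamoxifen replicate 2 (adjusted p = 0.065), vehicle replicate 1 (0.0612), vehicle replicate 2 (0.0646) or vehicle replicate 4 (0.0645).

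The alpha and beta chains stayed close to each other. Cd8b1 was 0.862 to 1.203 times Cd8a in tamoxifen libraries and 0.814 to 1.03 times Cd8a in vehicle libraries. Their log2 ratio did not separate the groups (exact permutation p = 0.4, adjusted 0.476 over the 10 ratios). With group means removed, Cd8a and Cd8b1 had a Pearson r of 0.90 over the 8 libraries, the highest among the member pairs.

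Cd4 (ENSMUSG00000023274, chromosome 6, 124814710 to 124838239) encodes the class II coreceptor, which some dendritic cells of mice carry as well. It measured 6.19, 14.7, 9.48 and 10.8 FPKM in tamoxifen replicates 1 to 4, against 23.0, 20.8, 13.5 and 20.7 FPKM in vehicle replicates 1 to 4. The groups overlapped, because tamoxifen replicate 2 exceeded vehicle replicate 3. The log2 fold change of -0.89 (SE 0.25) did not pass the test (limma adjusted p = 0.0804), nor did it in any other setting or without any single library (adjusted p of 0.0668 to 0.183).

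Within tamoxifen tumors the extremes of Cd8a and Cd4 lay in opposite libraries. Tamoxifen replicate 1 had the most Cd8a and the least Cd4, and tamoxifen replicate 2 the least Cd8a and the most Cd4, while Cd8b1 was lowest in replicate 4. The ratio of Cd8a to Cd4 in FPKM was 1.80, 0.348, 0.815 and 0.539 in tamoxifen replicates 1 to 4, against 0.821, 1.18, 1.23 and 0.964 in vehicle replicates 1 to 4. The vehicle libraries thus lay inside the range of the tamoxifen libraries. On the log2 scale the ratio averaged -0.41 ± 0.90 in tamoxifen and 0.05 ± 0.26 in vehicle tumors (SD, n = 4 each; exact permutation p = 0.371, adjusted 0.476). The difference of -0.46 became -0.85 without tamoxifen replicate 1 and -0.15 without tamoxifen replicate 2, so no shift between the coreceptors could be shown at this spread.

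**Figure D3:**
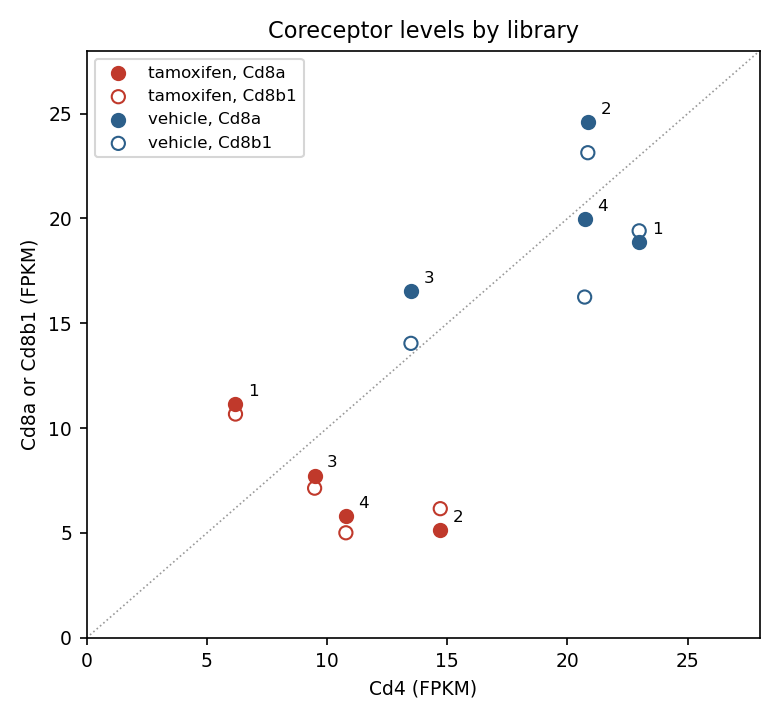
Cd8a (filled) and Cd8b1 (open) against Cd4, all in FPKM from 0, with 1 filled and 1 open point per library, replicate numbers beside Cd8a and a dotted line of equal levels. Vehicle libraries lie near the line at high levels of each gene, and tamoxifen libraries run from replicate 1 (high Cd8a, low Cd4) to replicate 2 (low Cd8a, high Cd4).

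Among the proximal kinases, Lck fell and Zap70 did not pass. Lck (ENSMUSG00000000409, chromosome 4, 129225588 to 129250885) encodes the Src family kinase that the coreceptors carry. It measured 15.3, 12.1, 18.2 and 19.2 FPKM in tamoxifen replicates 1 to 4, against 39.8, 35.9, 29.6 and 42.7 FPKM in vehicle replicates 1 to 4. The groups did not overlap, and the lowest vehicle library stood well above the highest tamoxifen library. The log2 fold change was -1.15 (SE 0.17, limma adjusted p = 0.0122). The call held without any single library (adjusted p of at most 0.0434) and in 11 of the 12 other settings, all but scaling to the same total (0.0642).

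The log2 fold changes of Lck and Cd3e were -1.15 and -1.12. Their log2 ratio averaged 0.86 ± 0.34 in tamoxifen and 0.88 ± 0.14 in vehicle tumors (SD, n = 4 each; exact permutation p = 0.971), a difference of -0.03. Leaving out 1 library at a time moved that difference between -0.13 and 0.13.

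Zap70 (ENSMUSG00000026117, chromosome 1, 36818695 to 36839663) encodes the kinase that docks on phosphorylated ITAMs, in NK cells as well as T cells. It measured 4.92, 6.57, 8.91 and 7.91 FPKM in tamoxifen replicates 1 to 4, against 12.4, 5.30, 9.03 and 10.9 FPKM in vehicle replicates 1 to 4. Vehicle replicate 2 fell among the tamoxifen libraries, so the groups overlapped. The log2 fold change was -0.34 (SE 0.26, 95% interval -0.93 to 0.25, limma adjusted p = 0.484). This interval includes the changes of Cd3d, Cd3g and Cd4 and does not reach those of Cd3e, Lck, Cd8a and Cd8b1. Those changes are point estimates, however, and their own 95% intervals all overlap that of Zap70 (for Cd3e, -1.40 to -0.84).

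The log2 ratio of Zap70 to Cd3e was -0.62, -0.40, 0.07 and -0.01 in tamoxifen replicates 1 to 4, against -0.85, -1.53, -0.85 and -0.87 in vehicle replicates 1 to 4. The groups did not overlap, with more Zap70 per Cd3e in tamoxifen tumors. The mean difference was 0.78 (exact permutation p = 0.0286, the smallest possible, and 0.143 when adjusted over the 10 ratios). As for Cd247 to Cd3e, the adjusted value could not have passed at any size of the difference. The mean difference was 0.61 without vehicle replicate 2, which had the lowest ratio.

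The order of mean levels differed between the groups. In tamoxifen tumors the means ran from Cd3g (39.1 FPKM) through Lck (16.2), Cd247 (11.4), Cd4 (10.3), Cd3d (9.73), Cd3e (8.38), Cd8a (7.45) and Cd8b1 (7.25) to Zap70 (7.08). Only Cd3g from Lck and Lck from Cd247 were free of overlap between neighbours. In vehicle tumors they ran from Cd3g (71.3 FPKM) through Lck (37.0), Cd8a (20.0), Cd3e (19.5), Cd4 (19.5), Cd3d (18.3) and Cd8b1 (18.2) to Cd247 (12.1) and Zap70 (9.41). There only Cd3g from Lck, Lck from Cd8a and Cd8b1 from Cd247 were free of overlap. The mean of Cd247 thus stood above those of Cd3e, Cd3d, Cd4 and both CD8 genes in tamoxifen tumors and below them in vehicle tumors. In tamoxifen libraries, however, Cd247 (10.2 to 12.1 FPKM) was clear only of Cd3e (7.95 to 9.02 FPKM). It overlapped Cd3d, Cd4 and both CD8 genes there, so a change of order relative to these rests on means.

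The receptor chains that the complex carries were lower as well. Of 7 constant region genes listed, 3 were matched in the table, and 2 of these 3 fell, against 3.07% of all tested genes. Trac, the alpha chain constant region, averaged 46.6 ± 11.1 FPKM in tamoxifen and 89.5 ± 7.71 FPKM in vehicle tumors (SD, n = 4 each; log2 fold change -0.96, limma adjusted p = 0.0234). Trbc2, the second beta chain constant region, averaged 21.7 ± 2.93 FPKM in tamoxifen and 37.6 ± 7.48 FPKM in vehicle tumors (log2 fold change -0.75, limma adjusted p = 0.044), and its values are uncertain because it is nearly identical to Trbc1. Trbc1 did not pass (adjusted p = 0.141). Trac lost its call in 5 of 8 fits without 1 library and Trbc2 in 7 of 8, with adjusted p up to 0.0758 and 0.115.

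Downstream of the kinases, 6 of 26 adaptor and signalling genes fell, against 3.07% of all tested genes. The list was not limited to genes particular to T cells, and which cells the RNA came from was not tested. A negative change was seen in 24 of 26, with a median of -0.31, and in 7423 of all 15023 tested genes. Sh2d2a, the T cell specific adaptor TSAd, averaged 2.42 ± 0.265 FPKM in tamoxifen and 4.52 ± 0.204 FPKM in vehicle tumors (SD, n = 4 each; log2 fold change -0.69, limma adjusted p = 0.0156). Grap2, the adaptor GADS that links LAT to SLP-76, averaged 3.34 ± 0.399 FPKM in tamoxifen and 5.74 ± 0.682 FPKM in vehicle tumors (log2 fold change -0.63, adjusted p = 0.0284). The call of Sh2d2a held without any single library, and that of Grap2 was lost in 6 of 8 such fits (adjusted p up to 0.0853).

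None of 16 negative regulators of receptor signalling passed by limma, and 4 were lower and none higher at an unadjusted p under 0.05. Many of all tested genes reached that level: Cd4, at an unadjusted limma p of 0.00726, ranked 1356 of 15023. Counts at that level, here and below, are given without the share over all tested genes. Cd5, a surface inhibitor of receptor signals, averaged 2.92 ± 1.503 FPKM in tamoxifen and 6.49 ± 1.54 FPKM in vehicle tumors (SD, n = 4 each; limma adjusted p = 0.0805). Sla2, an adaptor that lowers receptor levels, averaged 1.62 ± 0.127 FPKM in tamoxifen and 2.62 ± 0.638 FPKM in vehicle tumors (adjusted p = 0.137). The list median was -0.13. Cd5 passed without tamoxifen replicate 4 (limma adjusted p = 0.0376) and with the range of the sample identifier as a covariate (0.0244). That range sets tamoxifen replicates 3 and 4 and vehicle replicate 4 apart from the other libraries, unevenly between the groups. What it stands for is not given.

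Of 20 surface and costimulatory genes 5 fell, against 3.07% of all tested genes, and 19 of 20 had a negative change (median -0.56). Il2rb, the beta chain of the IL-2 and IL-15 receptors, averaged 8.35 ± 1.68 FPKM in tamoxifen and 18.4 ± 0.765 FPKM in vehicle tumors (SD, n = 4 each; log2 fold change -1.07, limma adjusted p = 0.00969). Cd2, an adhesion receptor of T and NK cells, averaged 5.54 ± 0.311 against 11.5 ± 2.20 FPKM (tamoxifen against vehicle; log2 fold change -0.92, adjusted p = 0.0133). Cd7, an immunoglobulin family receptor of the same cells, averaged 7.33 ± 1.56 against 22.9 ± 8.05 FPKM (log2 fold change -1.48, adjusted p = 0.0161). These 3 calls held without any single library. Under scaling to the same total FPKM, however, Cd7 alone of the 8 called genes named from the T cell lists passed (limma adjusted p = 0.0297), while Il2rb (0.0696), Cd2 (0.0969) and the others (0.15 to 0.331) did not.

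Of 14 T cell transcription factor genes 1 fell, Ikzf3, which encodes Aiolos of lymphocytes, against 3.07% of all tested genes. Ikzf3 averaged 4.56 ± 0.412 FPKM in tamoxifen and 9.43 ± 3.17 FPKM in vehicle tumors (SD, n = 4 each, limma adjusted p = 0.0416). That call was lost in 7 of 8 fits without 1 library (adjusted p up to 0.0951). The list median was -0.22. None of the 7 Src family kinase genes other than Lck passed by limma (median -0.07; 1 lower and none higher at an unadjusted p under 0.05). None of the 5 genes for Syk and for ITAM adaptors of B and myeloid cells passed either (median -0.10; none in either direction at an unadjusted p under 0.05).

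**Figure D4:**
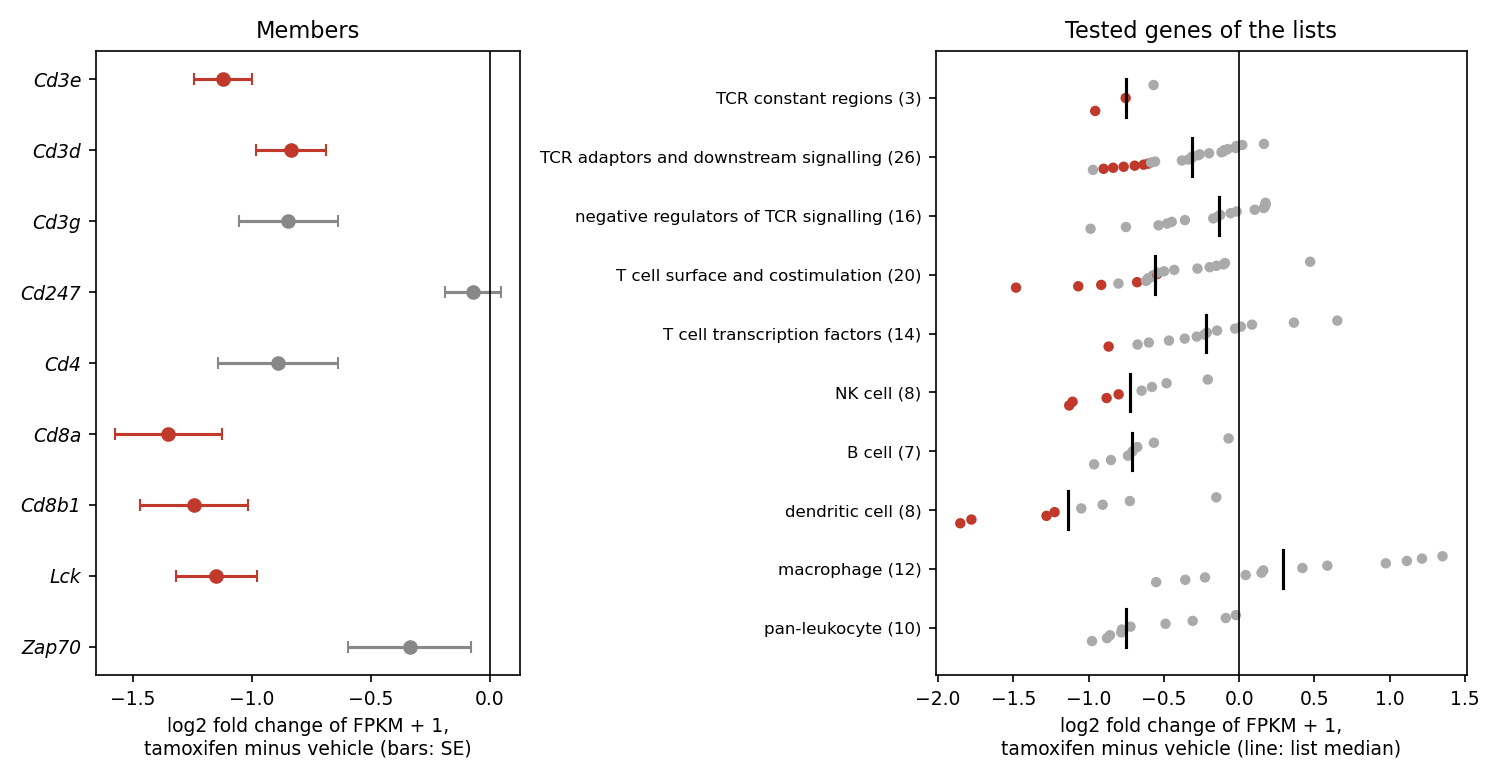
Log2 fold change of FPKM + 1, tamoxifen minus vehicle, for the 9 members with SE bars (left) and for the tested genes of 10 lists with the number of genes in brackets and a line at each list median (right); red marks genes past an adjusted p of 0.05. Members run from -1.35 (Cd8a) to -0.07 (Cd247), and the medians of the lists drawn from -1.14 (dendritic cell) to 0.29 (macrophage); the epithelium list is not drawn.

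Genes listed for other cells that carry some of these proteins also differed, and their part in the results was not tested. Whether the RNA of these listed genes came from those cells or from T cells was not tested either. Of 8 tested NK cell genes 4 fell (median -0.72), against 3.07% of all tested genes. The summed level of the 9 genes listed overlapped, however, at 20.8 to 57.8 FPKM in tamoxifen and 47.5 to 55.7 FPKM in vehicle libraries. Tamoxifen replicate 1, the highest of its group for Cd8a, was also the highest for the NK receptor gene Klrd1, at 42.5 FPKM against 11.5 to 17.1 FPKM in the other tamoxifen libraries and 24.7 to 32.8 FPKM in vehicle libraries. Without Klrd1, a choice made after seeing the data, the NK sum was 8.77 to 15.2 FPKM in tamoxifen and 21.2 to 23.7 FPKM in vehicle libraries, without overlap. Of 8 tested dendritic cell genes 4 fell (median -1.14), against 3.07% of all tested genes. All genes of that list summed to 31.8 to 53.5 FPKM in tamoxifen and 74.4 to 124 FPKM in vehicle libraries. Xcr1 and Clec9a of that list measured 0.408 to 0.729 and 1.24 to 3.31 FPKM in tamoxifen libraries and 1.51 to 3.27 and 7.12 to 12.4 FPKM in vehicle libraries. Whether dendritic cells of these tumors carried CD8 alpha was not tested.

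No B cell gene of 7 tested passed by limma (median -0.71, 1 lower at an unadjusted p under 0.05), and all genes of that list summed to 15.0 to 39.0 FPKM in tamoxifen and 9.27 to 123 FPKM in vehicle libraries. No macrophage gene of 12 passed (median 0.29, 3 higher at an unadjusted p under 0.05), with a summed level of 622 to 1401 FPKM in tamoxifen and 695 to 1026 FPKM in vehicle libraries. Thymocyte genes were at or near 0: Rag2 was listed at 0 in every library, and the 4 such genes summed to at most 0.0363 FPKM in tamoxifen and 0.124 FPKM in vehicle libraries. Of 9 intestinal epithelium genes 1, the keratin gene Krt18, rose, against 2.38% of all tested genes. At an unadjusted p under 0.05, 6 of the 9 were higher (median 0.87). The share of all tested genes at that level is not given for any of these lists. Their summed level was 940 to 2241 FPKM in tamoxifen and 471 to 758 FPKM in vehicle libraries, without overlap.

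Ptprc encodes CD45, the phosphatase of all leukocytes that keeps LCK ready to act. It measured 30.4, 32.9, 15.3 and 21.9 FPKM in tamoxifen replicates 1 to 4, against 40.9, 49.3, 36.0 and 43.7 FPKM in vehicle replicates 1 to 4, without overlap. It did not pass (log2 fold change -0.78, SE 0.23, limma adjusted p = 0.0901). The log2 ratio of Cd3e to Ptprc averaged -1.42 ± 0.47 in tamoxifen and -1.08 ± 0.28 in vehicle tumors (SD, n = 4 each; exact permutation p = 0.257, adjusted 0.476). None of 10 pan-leukocyte genes passed by limma. All 10 had a negative change (median -0.75), as did 7423 of all 15023 tested genes. At an unadjusted p under 0.05, 7 were lower, and the share of all tested genes at that level is not given.

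The genes whose levels followed the members most closely were found by the Pearson r of each gene with the mean of the members' standardised levels, over the 8 libraries and 14966 genes. Antigen receptor gene segments and genes with only a provisional or clone-based symbol were then left out, whatever their r. The 6 highest of the rest were Ifnar2 (r 0.99), Olfm4 (0.99), Hbb-b1 (0.98), Lax1 (0.98), Cxcr3 (0.98) and Hba-a1 (0.98). With group means removed their r was 0.83 to 0.97. Those values come from the same libraries that chose these genes, so they are no separate support. Ifnar2 encodes a chain of the type I interferon receptor and averaged 42.9 ± 0.715 FPKM in tamoxifen and 59.2 ± 6.02 FPKM in vehicle tumors (SD, n = 4 each). Lax1 encodes a membrane adaptor that restrains receptor signals in lymphocytes and averaged 6.56 ± 0.391 FPKM in tamoxifen and 12.8 ± 2.52 FPKM in vehicle tumors. Cxcr3, a chemokine receptor of activated T and NK cells, averaged 4.87 ± 0.62 FPKM in tamoxifen and 10.49 ± 2.05 FPKM in vehicle tumors. Olfm4, a secreted protein of intestinal crypts and neutrophils, and the haemoglobin genes Hbb-b1 and Hba-a1 lay at 0.711, 0.381 and 0.104 FPKM on average in tamoxifen and at 8.41, 9.16 and 2.96 FPKM in vehicle tumors. Likeness was given as a description over 8 libraries that all these genes share.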

How the data were processed

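The 8 libraries of cecal tumors, 4 tamoxifen and 4 vehicle, were grouped by sample title. Per the labels' protocols, tumors were homogenized in Trizol, RNA was column purified and libraries followed standard Illumina protocols. The authors deposited gene-level FPKM per library, and per the file headers each value has confidence bounds and a status. STAR 2.3, Cufflinks, Cuffdiff and mm9 are named in the submitters' processing notes; the sources used here give no settings, strandedness or annotation release. All columns were matched by the identifier in the sample description.

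A total of 178 values with a failed status, all listed at 0, were set to missing; no member had one. Rows were summed per symbol. Genes with a mean of at least 1 FPKM and at least 2 estimates per group were compared on log2(FPKM + 1) with limma 3.58.1 in R 4.3.3 (eBayes with a trend, 2-sided, Benjamini-Hochberg over 15023 genes, threshold 0.05); such fold changes understate the change of low genes. The procedure was tested on simulated data. Ratios were compared by an exact 2-sided permutation test over 70 arrangements and adjusted over the 10 ratios. Besides the members, genes named were up to 3 called genes per T cell list (by p), or the 2 with the smallest p where none was called, Ptprc, and 6 by likeness; Klrd1, Xcr1, Clec9a and Krt18 were named after their values were seen. A gene that this rule also chose is not reported here. Members, lists and ratios were chosen with earlier results of these data known. Starts of loci count from 1.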

Additional observations from a re-analysis of the deposited data

Results flagged for a closer look

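Each group of 4 was examined for a library far from the other 3, for 62 groups of values in all (members, named genes and ratios), where chance gives about 1 in 20. In 2 groups the gap to the nearest library, divided by the range of the group, passed Dixon's 95% critical value, at 0.927 and 0.961. The log2 ratio of Cd247 to Cd3e in tamoxifen replicate 2 was 0.16, against 0.47 to 0.49 in the other tamoxifen libraries. It still lay above every vehicle library. The log2 ratio of Zap70 to Cd3e in vehicle replicate 2 was -1.53, against -0.87 to -0.85 in the other vehicle libraries, and without it the difference between groups was 0.61. This library had the lowest Zap70 of its group, at 5.30 FPKM.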

How the results depend on the processing

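In addition to leaving out each library, 12 other settings were tried for the members, and every member kept a negative change in all of them. Over all genes 819 were called, 43.7% of them higher, and from 260 to 814 without 1 library. A filter at a mean of 5 FPKM called 534, scaling to the same total 228 (67.1% higher) and the replicate block 252. Scaling to the total without receptor segments called 893 (26.4% higher) and moved the median of all genes by -0.13. Of the members, 5 passed in the fit as reported, 2 to 5 without 1 library, 1 with scaling to the same total and 3 with the replicate block. Scaling to the same total ended the calls of Cd3d (log2 fold change -0.78, adjusted p = 0.121), Cd8a (-1.29, 0.0768), Cd8b1 (-1.18, 0.0877) and Lck (-1.09, 0.0642). Cd3g passed with scaling to the total without receptor segments (-0.99, 0.0316) and with robust variance (-0.85, 0.0468). The replicate block ended the calls of Cd3d (-0.83, 0.0539), Cd8a (-1.35, 0.06) and Cd8b1 (-1.24, 0.0522), and Cd3g passed (-0.85, 0.039). The cause of these changes was not tested. The replicate numbers were not treated as pairs in the fit as reported. Same-numbered libraries deviated together in only 1 of 4 pairs (r of -0.16 to 0.14, limit 0.1). Of the 4 tamoxifen libraries, 1 matched its own number best. With so few libraries this check cannot exclude a pairing. Without 1 library the log2 fold changes ran from -0.93 to -0.74 for Cd3d, -1.54 to -1.21 for Cd8a and -1.42 to -1.10 for Cd8b1. Pseudocounts of 0.1 and 0.25 FPKM changed no call of a member or ratio. For the other genes chosen by the naming rule 188 values kept their side of the threshold, 46 lost and 2 gained a call. Read depth is unknown, so the counting error of low genes cannot be given.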
